A study of Danio rerio with 4 samples.

Results

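A set of 10 genes of the Stat3 and gp130 cytokine pathway was followed through radial glia of the adult zebrafish telencephalon after a stab wound: stat3, socs3a, socs3b, jak1, jak2a, il6st, lifra, crlf1a, lepb and il11a. They were taken by symbol, and all 10 were found among the 24435 symbols of the count matrices, each under a single Ensembl gene. Socs3b, the second zebrafish copy of the feedback inhibitor Socs3, was about 3-fold higher in injured than in uninjured radial glia with and without metronidazole (MTZ). The level of socs3a, its paralog, hardly differed with injury in the fish without MTZ. It was far lower in the uninjured MTZ library than in the other 3 libraries. Its UMIs were spread unevenly over cells, as were those of other members.

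Cytokines of the interleukin 6 family bind a ligand-specific receptor together with the shared subunit gp130, encoded by il6st. The receptor-bound Janus kinases then phosphorylate the transcription factor Stat3, which enters the nucleus and activates its targets. Among these is socs3, whose product binds the receptor and kinase and damps the signal, so that socs3 transcripts are widely used as a readout of the pathway. In zebrafish, Stat3 signalling is best known from the regenerating retina, where Müller glia need it to re-enter the cell cycle, and leptin b and interleukin 11 are known from regenerating heart and fin.

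The data were single-cell RNA counts from cells sorted for dTomato, which the gfap promoter drives in radial glia, the neural stem cells of this tissue. Each of the 4 groups was 1 library made from 7 pooled telencephalons of fish 3 to 7 months old. The uninjured and the injured library came from Tg[GFAP:dTomato]nns17Tg fish. The uninjured MTZ and the injured MTZ library came from fish that carried Tg[mpeg1:NTR-EYFP]w202 as well, with nitroreductase under a macrophage and microglia promoter, and were treated with MTZ, a prodrug that nitroreductase turns toxic. Injured libraries were taken 3 days after the lesion; injury was read from the sample titles, because the treatment label names a lesion for all 4. MTZ, transgene and pool of fish cannot be told apart, and with 1 library a group no difference between libraries could be tested.

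After filtering, 4733 of 4857 cell barcodes were kept. The 4364 cells in which fabp7a, a radial glia gene, made up at least 0.2% of the UMIs (unique molecular identifiers, 1 per captured transcript) are called fabp7a cells, and the 369 remaining are called other cells. Fabp7a cells numbered 701 in the uninjured, 1020 in the injured, 1299 in the uninjured MTZ and 1344 in the injured MTZ library, with median depths of 3369, 3937, 2594 and 4124.5 UMIs, and 221 cells lay within a factor of 2 of the boundary. At least 3 of the 13 detected radial glia markers were present in 99.4% to 99.9% of fabp7a cells. Fabp7a is itself among the 13, so every fabp7a cell held it by the rule. At least 3 were also present in 19 of 26, 31 of 49, 32 of 34 and 99 of 260 other cells, in the same order of libraries. The libraries went partly against the MTZ label: at least 3 microglia or macrophage markers were found in 45 of 1299 fabp7a cells and 21 of 34 other cells of the uninjured MTZ library, against 0 of 701 and 1 of 26 in the uninjured library. Summed over the 14 markers, their level in fabp7a cells was 6.81, 314, 310 and 48.2 counts per 1e6 UMIs (CPM) in the uninjured, injured, uninjured MTZ and injured MTZ libraries, with 7 of 14 at 0 in the uninjured and in the injured MTZ library. In other cells the summed level was 2562, 3244, 9358 and 12720 CPM in the same order. At least 3 of the markers were found in 37 of 260 other injured MTZ cells, against 5 of 49 other injured cells. Among fabp7a cells they were found in 0 of 1344 injured MTZ and 3 of 1020 injured cells. The calls of the 10 genes are therefore also given without cells that held 3 markers of another type. The types left out were microglia, mature neurons, immature neurons, cycling and ciliated cells. Fabp7a cells with 3 fibroblast or mural markers were not left out for them. These were 77 uninjured, 79 injured, 42 uninjured MTZ and 90 injured MTZ cells. Any pair of libraries shared 0 to 6 barcodes.

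The levels below are CPM summed over all fabp7a cells of a library, with exact Poisson 95% intervals, which cover counting error only and say nothing about variation between fish. For socs3b, the level was 191 CPM (175 to 208) in the uninjured, 574 (553 to 596) in the injured, 243 (227 to 260) in the uninjured MTZ and 779 (757 to 801) in the injured MTZ library. Both injured libraries lay above both uninjured ones, by 3.00-fold without MTZ (2.73 to 3.30) and 3.20-fold with MTZ (2.98 to 3.44). The share of fabp7a cells with a socs3b UMI was 29.5%, 50.9%, 29.7% and 55.1% in the same order. Among cells thinned to 1000 UMIs it was 12.5%, 26.2%, 17.5% and 33.9%. Thinning, here and below, left out fabp7a cells under 1000 UMIs. These were 35 of 701, 42 of 1020, 403 of 1299 and 65 of 1344 cells, so most were in the uninjured MTZ library. Cells with 10 or more socs3b UMIs were 8 of 701 and 3 of 1299 in the uninjured and uninjured MTZ libraries, against 91 of 1020 and 178 of 1344 in the injured ones. More cells held the transcript after injury, and the cells that held it held more of it. Counting each gene only once per cell reduced the log2 ratios from 1.58 to 0.75 without MTZ and from 1.68 to 0.40 with MTZ.

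The level of socs3a, the paralog, was 2767 CPM (2706 to 2830) in the uninjured, 3255 (3204 to 3306) in the injured, 1263 (1226 to 1300) in the uninjured MTZ and 2799 (2757 to 2841) in the injured MTZ library. The uninjured MTZ library stood apart, and the other 3 lay close together. Injury without MTZ came with a level 1.18-fold higher (1.14 to 1.21), and injury with MTZ with one 2.22-fold higher (2.14 to 2.29). Between the uninjured libraries, the level with MTZ was lower by 2.19-fold (log2 ratio −1.13, −1.19 to −1.08). In cells without 3 markers of another type, the levels were 2877, 3660, 1301 and 3019 CPM, in the same order of libraries, and the difference between the uninjured libraries was as large.

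Socs3a was not spread evenly over the cells. The tenth of fabp7a cells with most socs3a UMIs held 48.3%, 41.4%, 51.9% and 43.0% of all socs3a UMIs in the uninjured, injured, uninjured MTZ and injured MTZ library. This was not particular to socs3a. The same measure was 68.5%, 52.6%, 62.0% and 48.0% for socs3b and 58.4%, 54.1%, 49.6% and 51.3% for il6st. These shares are at full depth, so they also depend on the depth of the cells and the level of the gene. At 1000 UMIs a cell, 44.1%, 40.6%, 50.3% and 44.7% of the cells had no socs3a UMI, a range much narrower than that of the levels. The libraries differed more at the high end: cells with more than 10 socs3a UMIs of 1000 were 4.80%, 6.44%, 0.781% and 5.08%, and cells with 6 to 10 were 12.2%, 15.7%, 4.13% and 13.3%. At full depth a positive cell held 6.33 socs3a UMIs on average in the uninjured MTZ library, against 16.3 in the uninjured, 22.9 in the injured and 19.9 in the injured MTZ library, with the median depths given above. Cells with a socs3a UMI were 67.5%, 68.3%, 54.2% and 65.0% at full depth, again lowest in the uninjured MTZ library. When each gene was counted once per cell, as a share of all gene detections, the log2 ratio of the uninjured libraries turned to 0.10 and that of the injury comparison with MTZ to −0.23.

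**Figure D1:**
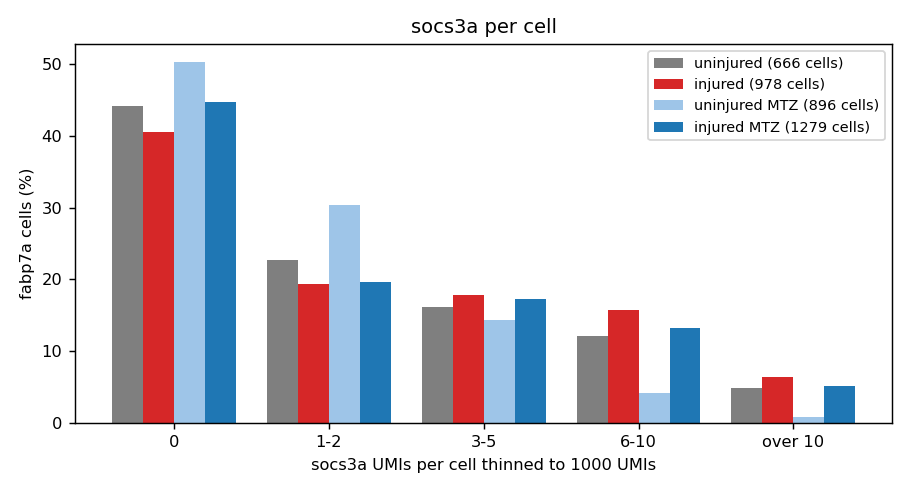
Share of fabp7a cells (y axis, percent) by the number of socs3a UMIs in a cell thinned to 1000 UMIs (x axis), with 1 bar for each library and no error bars. In the 3 classes from 3 UMIs upward (3 to 5, 6 to 10 and over 10) the uninjured MTZ bar is the lowest, with 0.781% of its 896 cells above 10 UMIs against 4.80% to 6.44% in the other 3 libraries.

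The level of stat3, the transcription factor itself, was 38.3 CPM (31.4 to 46.3) in the uninjured, 74.0 (66.6 to 82.1) in the injured, 58.4 (50.7 to 66.9) in the uninjured MTZ and 73.5 (66.9 to 80.6) in the injured MTZ library. The uninjured library was the lowest, and the intervals of both injured libraries overlapped. Injury without MTZ came with a level 1.93-fold higher (1.55 to 2.42), and injury with MTZ with one 1.26-fold higher (1.07 to 1.49), short of the 1.5-fold used as a call. At equal depth the log2 ratio with MTZ was −0.18 in place of 0.33, so no direction is given for stat3 there. A stat3 UMI was found in 12.6%, 22.3%, 12.9% and 23.2% of fabp7a cells at full depth. After thinning the shares were 2.40%, 5.62%, 6.03% and 5.39%.

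Jak1, a kinase that binds gp130, was higher in both injured libraries than in both uninjured ones. Its level was 108 CPM (96.4 to 121) in the uninjured, 212 (200 to 226) in the injured, 132 (120 to 144) in the uninjured MTZ and 185 (174 to 196) in the injured MTZ library. Injured cells held 1.96-fold more (1.72 to 2.24) without MTZ and 1.40-fold more (1.26 to 1.56) with MTZ. The 2 comparisons share no library, and their intervals did not overlap, but the difference between them could not be tested for lack of replicates. Counting each gene once per cell reduced the log2 ratios of jak1 from 0.97 to 0.68 without MTZ and from 0.49 to 0.12 with MTZ. Jak2a, another Janus kinase, was rare, at 7.53, 5.10, 2.83 and 4.51 CPM from 21, 25, 10 and 28 UMIs, and the intervals of neighbouring levels overlapped throughout.

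Il6st, which encodes the shared receptor subunit gp130, varied little: 109 CPM (96.7 to 122) in the uninjured, 140 (130 to 151) in the injured, 159 (146 to 173) in the uninjured MTZ and 129 (120 to 138) in the injured MTZ library. Injury came with a log2 ratio of 0.37 without MTZ and −0.31 with MTZ, and neither passed 1.5-fold. Lifra, a receptor for leukemia inhibitory factor in the same complex, stood at 14.3, 13.9 and 15.3 CPM in the uninjured, injured and uninjured MTZ libraries and at 7.09 CPM (5.15 to 9.52) in the injured MTZ library. Only the injured MTZ library was low, by 2.16-fold against uninjured MTZ and 1.96-fold against injured, on 44 UMIs against 54 and 68.

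The ligands and their secreted partner were scarce. Crlf1a, which encodes a soluble receptor-like factor secreted with its partner ligand, stood at 2.87 CPM (1.24 to 5.65) in the uninjured, 15.3 (12.0 to 19.2) in the injured, 5.95 (3.68 to 9.10) in the uninjured MTZ and 18.7 (15.4 to 22.4) in the injured MTZ library. At full depth both injured libraries lay above both uninjured ones, by 5.34-fold without MTZ (2.57 to 12.8) and 3.14-fold with MTZ (1.96 to 5.27). Few cells carried it: 31 of 1020 and 60 of 1344 in the injured libraries, where 1 cell held 17.3% and 13.8% of its UMIs, and without the top cell of each library the log2 ratios were 2.56 and 1.58. After thinning they were 1.03 and 0.64, with 2, 5, 8 and 18 positive cells in the uninjured, injured, uninjured MTZ and injured MTZ libraries. These were 0.300%, 0.511%, 0.893% and 1.41% of the thinned cells, so the uninjured MTZ library then lay above the injured one. Il11a, the interleukin 11 ligand, was found in 3, 34, 13 and 26 fabp7a cells, at 1.79, 8.16, 3.69 and 4.67 CPM. It was highest in the injured library, although its interval there (5.83 to 11.1) overlapped that of the injured MTZ library (3.13 to 6.71). Lepb, the leptin b ligand, was seen as 6 UMIs in 4 of 1020 injured cells and 2 UMIs in 1 of 1344 injured MTZ cells. Neither uninjured library held a lepb UMI (upper limits 1.32 CPM in the uninjured and 1.05 CPM in the uninjured MTZ library). The interval of the ratio of injured to uninjured cells starts at 0.67-fold, so no difference in lepb was detectable at this depth.

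**Figure D2:**
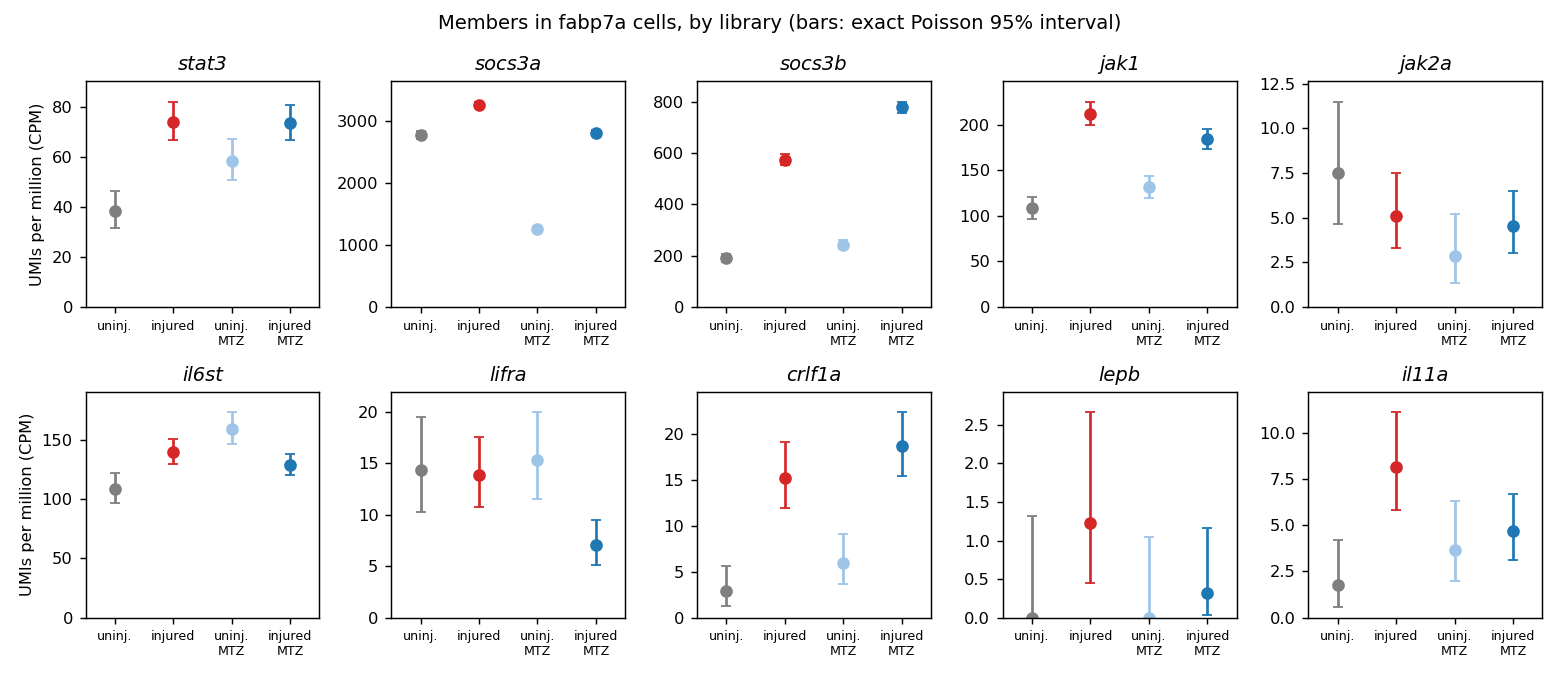
Level of each of the 10 genes in fabp7a cells (y axis, CPM, its own scale from 0 in each panel) in the 4 libraries (x axis), with exact Poisson 95% intervals as bars. At full depth, socs3b and crlf1a are higher in both injured libraries than in both uninjured ones, and socs3a is low in the uninjured MTZ library at 1263 CPM.

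Read over the 4 comparisons, a gene was called when its level differed by at least 1.5-fold and the libraries compared held at least 50 of its UMIs together. In injured against uninjured cells, 4 of the 10 genes were called, all higher (stat3, socs3b, jak1 and crlf1a), 3 lay within 1.5-fold and jak2a, lepb and il11a were under the minimum. Over all 9402 genes measured, 30.9% were called, 11.4% higher and 19.5% lower. The median log2 ratio was 0.95 over the 7 measured members and −0.18 over all genes, a shift that trimmed-mean (TMM) scaling brought to 0.00033. Both medians are descriptions of these 2 libraries. Without cells marked as another type, the ratios of stat3, socs3b and jak1 were 0.94, 1.71 and 0.97, those of socs3a, il6st and lifra 0.35, 0.32 and −0.10, and crlf1a, at 2.51 on 42 and 5 UMIs, was under the minimum. Jak2a, under the minimum in this comparison with and without those cells, went from −0.56 to −2.07 (1.89 CPM in injured and 7.94 CPM in uninjured cells).

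In injured MTZ against uninjured MTZ cells, socs3a, socs3b and crlf1a were called higher and lifra lower, 3 of the 10 genes lay within 1.5-fold and jak2a, lepb and il11a were under the minimum. Of 9839 genes, 26.4% were called, 13.6% higher and 12.8% lower. Without cells marked as another type, the same 4 genes were called, with ratios of 1.21 for socs3a, 1.61 for socs3b, 1.86 for crlf1a and −1.09 for lifra. In injured MTZ against injured cells, lifra and il11a were called lower, 7 of the 10 genes lay within 1.5-fold and lepb was under the minimum, while 18.6% of 10293 genes were called, 8.37% higher and 10.2% lower. Stat3 differed there by a log2 ratio of −0.01 (−0.21 to 0.19). In uninjured MTZ against uninjured cells, stat3 was called higher and socs3a lower, 4 of the 10 genes lay within 1.5-fold and 4 were under the minimum, with 21.6% of 8703 genes called, 6.81% higher and 14.8% lower. Of the 10 genes, 7, 7, 9 and 6 were measured in the 4 comparisons, in the order given. The members were chosen with earlier results of these data known, so none of the 4 counts is a result about the pathway. Without cells marked as another type, crlf1a was also called higher in injured MTZ than in injured cells (0.74, from 0.29), and socs3b in uninjured MTZ than in uninjured cells (0.61, from 0.35). These comparisons share libraries in pairs and are set side by side only.

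**Figure D3:**
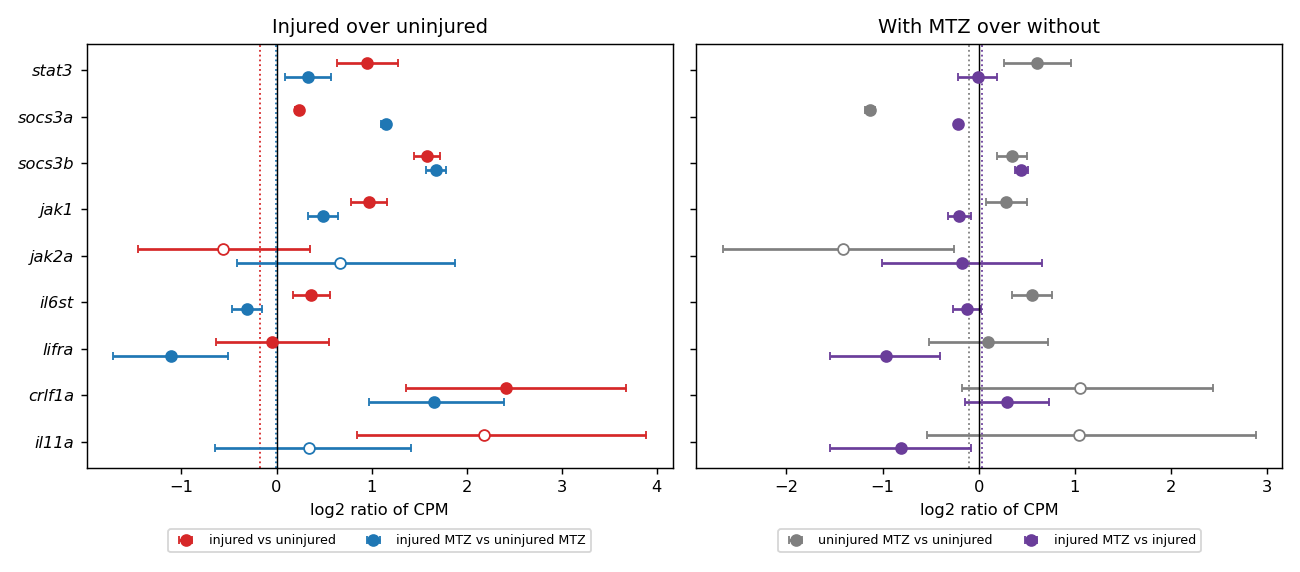
Log2 ratio of CPM in fabp7a cells (x axis) for 9 of the genes (rows; lepb is left out for its lack of UMIs in the uninjured libraries), with exact conditional 95% intervals as bars; open circles mark fewer than 50 UMIs, and dotted lines mark the median of all genes. Socs3b lies at 1.58 and 1.68 in the left panel, and socs3a lies at −1.13 for the uninjured libraries in the right panel.

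Free RNA puts UMIs of a gene into droplets of cells that do not make it. In the 165 other cells with at least 3 mature neuron markers, 140 of them from the injured MTZ library and with a median of 3338 UMIs against 3414.5 in fabp7a cells, a socs3a UMI was found in 16.4% and a socs3b UMI in 7.27%. Both shares were far below those of fabp7a cells in every library. The shares of stat3 (16.4%) and jak1 (32.1%) in these neuron-marked cells were above those of the uninjured and uninjured MTZ fabp7a cells. Those fabp7a shares alone thus do not show more than background. The uninjured MTZ fabp7a cells were also shallower than the neuron-marked cells, at a median of 2594 UMIs. By level, neuron-marked cells held stat3 at 48.1 and jak1 at 102 CPM. Uninjured fabp7a cells held 38.3 and 108 CPM, and uninjured MTZ ones 58.4 and 132 CPM. No cell type here is known to lack these genes, and most neuron-marked cells were injured MTZ cells. Background in the uninjured libraries was therefore not measured. The share of jak2a, at 3.64%, was above every fabp7a share, and that of crlf1a, at 1.82%, above those of the 2 uninjured libraries. Il6st was found in 21.8% of neuron-marked cells and lifra in 1.21%, both below every fabp7a share, and no lepb or il11a UMI was found in any. The 64 other cells with at least 3 microglia or macrophage markers had a median of 3041 UMIs. Socs3a was found in 21.9% and socs3b in 20.3% of them, below every fabp7a share but nearer to it than in neuron-marked cells. Stat3 was found in 25% and jak1 in 48.4% of them, both above every fabp7a share. Their jak1 level, 247 CPM (196 to 308), was above every fabp7a level, but its interval overlapped that of injured fabp7a cells.

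Fabp7a cells were also compared with other cells of the same library, as sums paired over the 4 libraries, with edgeR's quasi-likelihood test and Benjamini-Hochberg adjustment over 10398 genes, of which 18.9% were called (11.0% higher and 7.91% lower in fabp7a cells). The other cells were a mixture and few, 26, 49, 34 and 260 in the uninjured, injured, uninjured MTZ and injured MTZ libraries. Socs3a stood at 2120, 543, 162 and 397 CPM in them, below the fabp7a cells in all 4 libraries. It was higher in fabp7a cells by 2.39 ± 0.39 (log2, SE, 4 library pairs, edgeR adjusted p = 0.000242). The SE of edgeR differences, here and below, is the size of the difference divided by the square root of the test's F statistic. DESeq2, an alternative method, gave 2.38 with its own SE of 0.53 for socs3a. For socs3b the level in other cells was 221, 268, 101 and 96.7 CPM, and the difference was 1.53 ± 0.45 (edgeR adjusted p = 0.0221), with the uninjured library as the exception to its direction.

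Crlf1a went the other way, at 53.0, 43.3, 20.3 and 32.5 CPM in other cells, above the fabp7a level in all 4 libraries. Its difference was −1.64 ± 0.55 (edgeR adjusted p = 0.0438), on 6, 16, 1 and 37 UMIs that came from 1, 4, 1 and 6 other cells. The remaining measured members did not pass: stat3 stood at −0.06, jak1 at −0.47, jak2a at −0.60, il6st at 0.48 and lifra at 1.40, and lepb and il11a were too rare to enter. In other cells, in the same order of libraries, jak1 stood at 345, 222, 324 and 169 CPM. Its log2 injury ratios there were −0.64 without and −0.94 with MTZ, against 0.97 and 0.49 in fabp7a cells. Stat3 stood at 106, 59.5, 101 and 51.9 CPM in other cells, on 12, 22, 5 and 59 UMIs. The intervals of its injury ratios there spanned both directions. The count of 3 genes fell to 1 without the uninjured MTZ library and to 2 without the uninjured or the injured MTZ library, and only 1 gene passed when fabp7a cells were set at 0.5% of UMIs. Crlf1a no longer passed with doublets kept (edgeR adjusted p = 0.0528), and over all settings its edgeR adjusted p ran from 0.0315 to 0.257. Socs3b did not pass with fabp7a at 0.5% of UMIs (0.56, edgeR adjusted p = 0.388). It also did not without the injured MTZ library (edgeR adjusted p = 0.175) or without the uninjured MTZ library (edgeR adjusted p = 0.116). In the self-test of this comparison, 88 of 100 genes changed 4-fold and 17 of 93 changed 2-fold were called. The counts were simulated with the same assumed spread for every gene and no difference between libraries but depth. Under that setting differences near 2-fold were mostly out of reach. How far the assumed spread matches the few other cells is not given here.

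Because some fabp7a cells held many socs3a UMIs and others none, cells with and without one were compared within each library. The comparison was made after thinning to 1000 UMIs and was chosen after the values had been seen. Cells with a socs3a UMI held socs3b at 218, 620, 288 and 950 CPM in the uninjured, injured, uninjured MTZ and injured MTZ libraries. Cells without one held it at 136, 161, 191 and 247 CPM. Before thinning, the median depth of cells with a socs3a UMI was 4043, 4912, 3509 and 5059 UMIs in the same order. That of cells without one was 2717, 2515, 3501 and 2822.5 UMIs. Socs3b was higher beside socs3a in 4 of 4 libraries, by 1.19 ± 0.22 (log2, SE; edgeR's quasi-likelihood test paired by library, adjusted p = 7.95e-05 over 4812 genes, of which 25.3% were called, 11.9% higher). Without the pairing by library the difference was 1.33 and no longer passed (edgeR adjusted p = 0.0797). The cells with no socs3a UMI after thinning were also counted at full depth. Their log2 injury ratio of socs3b was then 0.76 without MTZ and 0.88 with MTZ. Over all fabp7a cells, including those under 1000 UMIs, it was 1.58 and 1.68. Counted at 1000 UMIs, cells with no socs3a UMI differed less by injury. Their socs3b stood at 136 and 161 CPM without MTZ and 191 and 247 CPM with MTZ. The full-depth injury ratio of stat3 without MTZ was 0.44 in cells with no socs3a UMI, against 0.95, and no longer past 1.5-fold.

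Jak1 stood at 105, 229, 119 and 216 CPM beside socs3a and at 74.8, 139, 122 and 97.9 CPM without it. It did not pass (0.45 ± 0.21, edgeR adjusted p = 0.097), although it did without the uninjured MTZ library (edgeR adjusted p = 0.0201). Stat3 (0.41 ± 0.26, edgeR adjusted p = 0.243) and il6st (0.03 ± 0.20, edgeR adjusted p = 0.922) did not pass. The other 6 members were too rare to enter or, for socs3a, made the split.

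**Figure D4:**
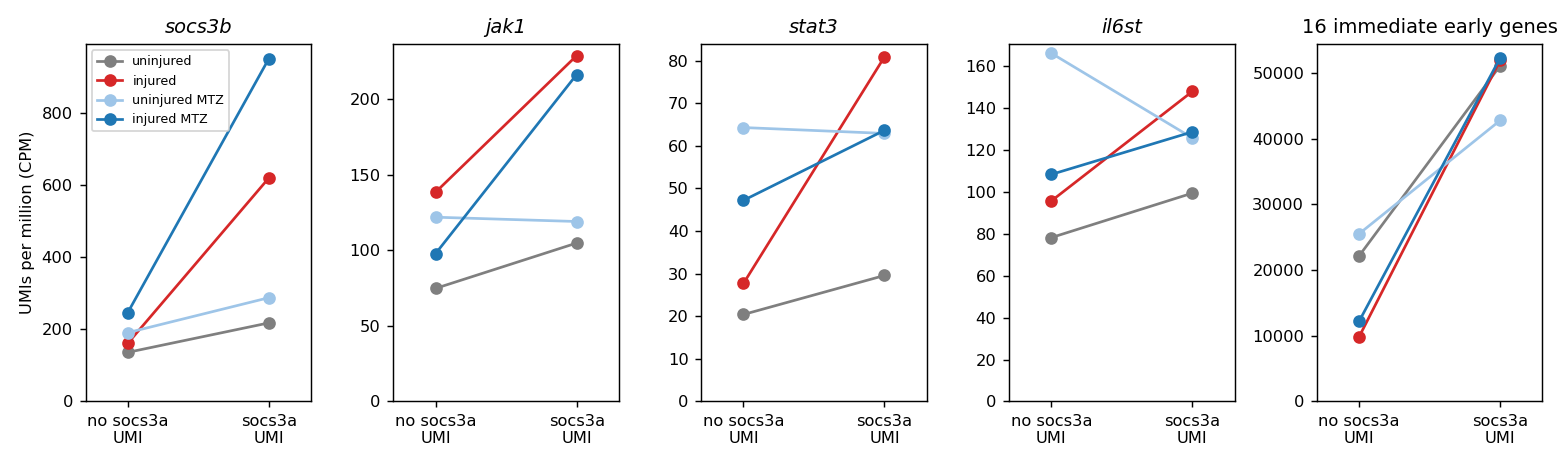
Levels (y axis, CPM at 1000 UMIs a cell) of socs3b, jak1, stat3, il6st and the sum of 16 immediate early genes in fabp7a cells without and with a socs3a UMI (x axis), with 1 line for each library and no error bars. Socs3b and the immediate early sum are higher beside socs3a in 4 of 4 libraries, and in injured MTZ cells socs3b goes from 247 to 950 CPM.

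The genes that differed most with the socs3a split, by p, were bag3 (1.98 ± 0.23), a co-chaperone, gadd45bb (2.03 ± 0.24), a stress-inducible gene, and dusp1 (1.87 ± 0.22), a phosphatase of the immediate early response, all higher beside socs3a, each with an edgeR adjusted p of 3.44e-08. The lower ones were led by rrm2 (−2.16 ± 0.26) and dut (−1.70 ± 0.22), enzymes of DNA precursor supply, and by sncga (−1.73 ± 0.22), a synuclein, with edgeR adjusted p from 3.44e-08 to 2.8e-07. Summed over 16 immediate early genes, a list chosen after seeing these results, cells with a socs3a UMI stood at 51105, 51935, 42773 and 52287 CPM, and cells without one at 22153, 9841, 25519 and 12201 CPM, in the order uninjured, injured, uninjured MTZ and injured MTZ. Of the 16 genes, 9 were lower by at least 1.5-fold in uninjured MTZ than in uninjured fabp7a cells, the comparison in which socs3a and 14.8% of all genes were called lower, and none was higher. In the injury comparisons 0 of the 16 were higher and 1 lower without MTZ, and 3 higher and 0 lower with MTZ. The median mitochondrial share was lower in cells with a socs3a UMI in all 4 libraries, most in injured MTZ cells at 2.30% against 5.56%. The part of immediate early genes, mitochondrial share or depth before thinning in the socs3a values was not tested.

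In fabp7a cells with at least 3 cycling markers, 20, 77, 22 and 90 cells in the same order, the 2 paralogs parted. Socs3a stood at 1214, 1475, 395 and 1519 CPM there, against 2877, 3660, 1301 and 3019 CPM in fabp7a cells that held 3 markers of none of the 5 types left out above (microglia, mature neurons, immature neurons, cycling and ciliated cells). Socs3b stood at 626, 690, 312 and 893 CPM there, against 158, 518, 241 and 736 CPM. Socs3a was thus lower and socs3b higher in cycling cells of 4 of 4 libraries, with overlapping intervals for socs3b in the uninjured MTZ library. Fabp7a cells with at least 3 immature neuron markers, 17, 56, 18 and 49 cells, parted the same way. They held socs3a at 1501, 1274, 548 and 926 CPM and socs3b at 629, 606, 411 and 908 CPM. The parting is therefore not read as particular to cycling cells, and a cell could count in both groups. Both groups were also deeper. Median depth was 7255.5, 9694, 6576 and 7370 UMIs in cycling cells and 8387, 9988, 5043.5 and 9051 UMIs in cells with immature neuron markers. It was 3258, 3561, 2638.5 and 3919 UMIs in cells of none of the 5 types. No values at equal depth are given for these groups, and none of these differences was tested. Cycling cells were 2.85% and 1.69% of fabp7a cells in the uninjured and uninjured MTZ libraries and 7.55% and 6.70% in the injured ones.

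Some radial glia of the injured libraries carry interferon-response transcripts, marked by isg15, which was chosen after seeing the values. At 1000 UMIs, 256 of 978 injured and 143 of 1279 injured MTZ cells held an isg15 UMI, against 14 of 666 and 12 of 896 in the uninjured libraries. In injured cells with an isg15 UMI, counted at full depth, socs3b stood at 741 CPM and stat3 at 96.6 CPM. In the injured cells without one they stood at 504 and 64.9 CPM, still above the 192 and 37.2 CPM of uninjured cells without one. Without MTZ, the log2 injury ratios of socs3b, stat3 and jak1 in cells without an isg15 UMI were 1.39, 0.80 and 0.90. With MTZ, such cells held the 3 genes at 774, 72.6 and 177 CPM in the injured library. In the uninjured MTZ library they held them at 263, 57.6 and 129 CPM. Injured MTZ cells with an isg15 UMI held the 3 genes at 839 (774 to 909), 85.0 (65.2 to 109) and 240 (206 to 278) CPM. For socs3b and stat3 these intervals overlapped those of injured MTZ cells without one (751 to 798 and 65.6 to 80.1). That of jak1 did not (166 to 189). The 14 uninjured and 12 uninjured MTZ cells with an isg15 UMI held socs3b at 197 and 68.5 CPM. Cells without an isg15 UMI at 1000 UMIs may hold one at full depth, and the part of isg15-positive cells was not tested.

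Beyond the 10 genes, lists of other pathway genes were chosen with earlier results of these data known. They held 79 symbols, of which 76 were in the matrices. Of these, 16 were called higher and 4 lower among 49 measured in injured against uninjured fabp7a cells, and 18 higher and 4 lower among 50 with MTZ, to be read against the same background shares of 30.9% and 26.4%. In both injury comparisons 12 of the 46 genes measured in both were called in the same direction, all higher; of 9116 genes measured in both, 5.16% were called higher in both and 4.85% lower in both. Stat2, a transcription factor of interferon signalling, stood at 83.9 and 294 CPM without MTZ and 44.8 and 147 CPM with MTZ (uninjured and injured), log2 ratios of 1.81 and 1.71, and irf1b, an interferon-response factor, had ratios of 1.95 and 1.39. Among the receptors, lifrb, the paralog of lifra, stood at 16.5 and 65.7 CPM without MTZ and 23.0 and 52.4 CPM with MTZ, ratios of 1.99 and 1.19, where those of lifra were −0.05 and −1.11.

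Of 22 inhibitors, cish had ratios of 0.96 and 1.01 and socs1a 0.88 and 1.25. Both belong to the Socs family of cytokine feedback inhibitors. The reported Stat3 targets and partners, 26 genes in the matrices, went both ways. Without MTZ, 8 were called higher and 3 lower (junbb at −0.83, myca at −1.31 and vegfaa at −0.72) of 25 measured, with a median log2 ratio of −0.07. With MTZ, 9 were called higher and 2 lower (mcl1b at −0.65 and cdkn1a at −0.63) of 23, with a median of 0.28. The 5 lower genes are named after their values were seen. Among the higher ones, lin28a, an RNA-binding pluripotency factor, went from 1 to 592 UMIs without MTZ and from 2 to 231 with MTZ, with 17.7% of the 231 in 1 cell. Timp2b, a metalloproteinase inhibitor, had ratios of 3.06 and 1.19. Of the 9 other ligands of the family, 7 were in the matrices. Clcf1 had 0 and 74 UMIs in uninjured and injured fabp7a cells, which was called higher, and 1 and 46 in uninjured MTZ and injured MTZ cells, under the minimum. Below the minimum in both comparisons, il11b had 0 and 20 UMIs without MTZ and 1 and 4 with MTZ, and lepa had 0 and 10 and then 4 and 24. Cntf did not pass 1.5-fold, with ratios of −0.27 and −0.02. These 4 and the next 3 are named after their values were seen. Il6 was seen as 1 UMI in injured fabp7a cells and as none in the other 3 libraries, and osmr and m17 had none in any.

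**Figure D5:**
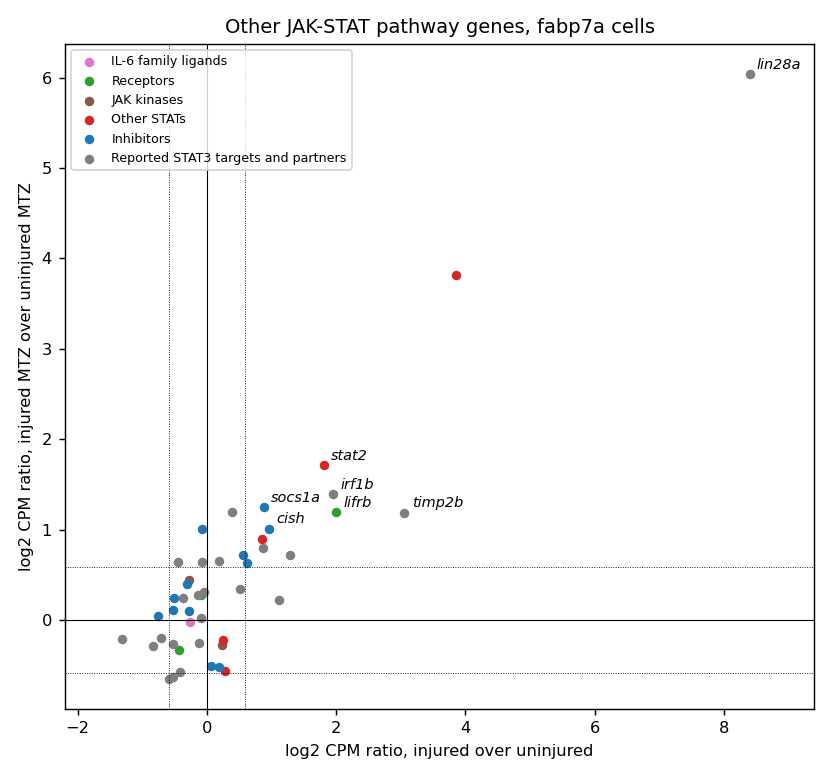
Log2 CPM ratio in fabp7a cells of injured over uninjured (x axis) and injured MTZ over uninjured MTZ (y axis) for the 46 other pathway genes measured in both, coloured by list, without error bars; dotted lines mark 1.5-fold. The 7 labelled genes lie past 1.5-fold in the same direction in both, with lin28a highest at 8.40 and 6.04.

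Over the 8 sums of 4 libraries and 2 cell classes, the gene of 5252 with the pattern most like that of stat3 was jak1 (Pearson r of log2 levels 0.92), followed by hivep1 (0.91), rab5ab (0.88), aurkaip1 (0.86) and bcor (0.86). For socs3a it was btg2 (0.98), an immediate early gene that is also one of the 16 summed above, followed by tomm40, prnprs3, CABZ01061591.1 and ptpn11a (0.97 to 0.96). The 8 sums share libraries in pairs, and these values are descriptions. Those of other cells held only 12, 22, 5 and 59 stat3 UMIs in the uninjured, injured, uninjured MTZ and injured MTZ libraries.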

How the data were processed

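Cells were captured with Chromium Single Cell 3' v3 chemistry. UMI counts per gene were deposited by the authors as filtered matrices on GRCz11. Cell Ranger is given as version 3.1.0 in the submitters' processing notes and as 4.0.0 per the file headers; the annotation release is not given in the sources used here. Depth was 2942274, 5388743, 3639735 and 7541363 UMIs in the uninjured, injured, uninjured MTZ and injured MTZ libraries.

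Barcodes needed 300 genes and at most 25% mitochondrial UMIs (74 left out), and 50 were removed as doublets by Scrublet in scanpy 1.11.5. Duplicate symbols were summed. Ratios have exact conditional binomial intervals; a call needed 1.5-fold and 50 UMIs. Sums were tested with edgeR 4.0.16, with the library as a block because both sums of a pair come from the same fish, and checked on simulated data; alternatives included DESeq2 1.42.0, TMM scaling and thinning to 1000 UMIs with seed 0. Named genes of the wider lists passed 1.5-fold in the same direction in both injury comparisons, at most 8; likeness used genes with 400 UMIs. The members and lists were chosen with earlier results of these data known. An item that the rule names is not reported here. No sequences are printed.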

Additional observations from a re-analysis of the deposited data

Results flagged for a closer look

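For il6st, the injury ratio had opposite signs without and with MTZ, at 0.37 and −0.31 on the log2 scale. For jak1, the MTZ ratio had opposite signs in uninjured and injured fabp7a cells, at 0.28 and −0.20. With 1 library a group, neither difference was tested, and none of the 4 values passed 1.5-fold.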

How the results depend on the processing

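Of 510 recomputed values of the library comparisons, 442 stayed within their counting interval or, for counts, within 1.5 times, 66 moved by more and 2 called ones turned sign; 26 that were not called also turned sign. Injured against uninjured, the count of called members was 2 at a fold of 2. Injured MTZ against uninjured MTZ, it was 2 with each gene counted once per cell or after thinning and 1 in cells with no socs3a UMI. Injured MTZ against injured, it was 0 after thinning or at a fold of 2 and 1 in cells with no socs3a UMI. Uninjured MTZ against uninjured, it was 1 with fabp7a at 0.1% of UMIs, over all cells, at 800 genes, once per cell, in cells with no socs3a UMI or at a fold of 2, 4 at 20 UMIs and 5 at 1 UMI in each library. Counted once per cell, socs3a turned to −0.23 (injury with MTZ) and 0.10 (uninjured libraries).

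For fabp7a against other cells, 1 member passed at 0.5% fabp7a and 1 without the replicate block, and 1 to 3 when a library was left out. The unpaired fit passed crlf1a alone, and socs3a then missed (edgeR adjusted p = 0.055). Differences that turned sign had not passed before or after: jak1 0.16 and stat3 0.39 at 0.1%, il6st −0.017 at 0.5%, stat3 0.24 without the filter on low counts and −0.29 to 0.36 when a library was left out, and il6st by socs3a −0.070 and −0.059 without the injured or uninjured library. Cells with no socs3a or isg15 UMI, cells without markers of another type and the socs3a split were chosen after seeing the data. Depth limits jak2a, lifra, crlf1a, lepb and il11a most.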
